A study of Mus musculus with 12 samples.

Results

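The aryl hydrocarbon receptor pathway is described here by 6 genes across retinas of mice with oxygen-induced retinopathy: the receptor gene Ahr, its partners Arnt and Arnt2, and Ahrr, Tiparp and Cyp1b1, which are known targets of the receptor. The 6 genes were chosen by name. From these same libraries, the paper already lists Ahr among genes raised by O2 and returned by IC100 to near room air levels. The Ahr values below are therefore not an independent test of that statement. Each symbol matched 1 of the 36131 genes of the count table, and all 6 passed the filter on low counts that left 16489 genes for testing. Retinas of 12 wildtype C57BL/6J mice were sequenced at P18, with 1 library per animal. The 4 RA-PBS mice (animals 1 to 4) stayed in room air and received PBS as placebo. The 4 O2-PBS mice (animals 5 to 8) were kept in 75% O2 from P7, returned to room air at P12 by the labels, and received PBS. The 4 O2-IC100 mice (animals 9 to 12) had the same exposure and received 10 µg/g of IC100, a humanized antibody against the inflammasome adaptor ASC. Injections fell on P12, P14 and P16, and the labels give them as intraperitoneal for placebo and antibody alike.

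AHR is a transcription factor that waits in the cytoplasm with HSP90 and other chaperones. Small molecules, among them dioxins and breakdown products of tryptophan, bind it, and it then enters the nucleus and pairs with ARNT to bind DNA at the core letters GCGTG. ARNT is also the partner of the hypoxia-inducible factors. AHRR is a repressor that competes for ARNT, TIPARP is an ADP-ribosyltransferase that marks AHR for shutdown, and CYP1B1 is a cytochrome P450 enzyme known in the eye for congenital glaucoma and in the retina for its part in vessels and pericytes.

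The start regions of the 3 target genes are shown with their copies of the core letters. Whether the receptor acts within these regions was not tested. Each line holds the 250 bases before the start of the gene, 5′ to 3′ on the strand of the gene, from RefSeq on build GRCm38.p6, with GCGTG or its reverse complement CACGC in capitals.
Ahrr: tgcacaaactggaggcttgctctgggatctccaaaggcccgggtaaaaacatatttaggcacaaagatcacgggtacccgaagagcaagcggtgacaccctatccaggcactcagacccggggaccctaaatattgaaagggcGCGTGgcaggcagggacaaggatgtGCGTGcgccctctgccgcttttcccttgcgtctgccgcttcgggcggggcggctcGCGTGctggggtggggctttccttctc
Tiparp: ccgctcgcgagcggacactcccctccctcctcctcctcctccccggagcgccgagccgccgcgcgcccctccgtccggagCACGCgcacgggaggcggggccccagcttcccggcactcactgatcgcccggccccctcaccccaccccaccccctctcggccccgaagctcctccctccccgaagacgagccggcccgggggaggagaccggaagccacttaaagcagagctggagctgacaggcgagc
Cyp1b1: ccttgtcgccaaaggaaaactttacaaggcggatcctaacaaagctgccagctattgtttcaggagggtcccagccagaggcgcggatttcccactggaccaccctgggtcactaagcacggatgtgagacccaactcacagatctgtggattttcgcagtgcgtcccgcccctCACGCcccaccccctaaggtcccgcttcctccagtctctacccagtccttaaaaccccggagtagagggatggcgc
These windows lie at chr13:74292332-74292581 on the minus strand for Ahrr, at chr3:65528197-65528446 on the plus strand for Tiparp and at chr17:79715062-79715311 on the minus strand for Cyp1b1. Ahrr held 3 copies of GCGTG, which began at positions -107, -82 and -27, counted from the start. The copy nearest the start also matched the longer motif TNGCGTG, with which it overlaps. Tiparp and Cyp1b1 held 1 copy each, both as CACGC, at positions -170 to -166 and -76 to -72. Arnt held 1 copy as well, and RefSeq entries were matched for 5 of the 6 genes. On both strands, GCGTG occurred in 28.1% of 32807 promoter windows of this length, 3 or more copies in 2.77%, and TNGCGTG in 4.10%. A match is a run of letters, not a binding site.

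The libraries were not equally retinal, which bears on every value below. Total counts were 14907143 to 24438082 per retina. All 10 rod photoreceptor markers were present in every library, and their summed CPM was 37212 to 44544 in 11 retinas and 10726 in O2-IC100 animal 10. Lens crystallins and other lens genes took 60.9% of the counts of O2-IC100 animal 10, 1.30% to 4.66% in RA-PBS animals 2 to 4 and at most 0.0163% in the other 8. Summed Y-linked CPM was 4.04 to 9.85 in animals 4, 5, 6, 7 and 10 and 223 to 324 in the other 7, so O2-PBS held 1 library with high Y-linked counts and the other groups 3 each. Results are therefore given for 12 animals and again without animal 10. Nothing in the sources gives these animals' litters.

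Normalized CPM are counts scaled to library size by TMM. To pass the thresholds a gene had to differ by 1.5-fold or more, with p under 0.05 in edgeR and under 0.1 once adjusted over all genes tested. Per kilobase of exon, Arnt and Ahr were the most abundant of the 6 in RA-PBS retinas, at 9.83 ± 1.57 and 9.08 ± 1.11 CPM per kb (SD, n = 4), which do not differ beyond their spread. Tiparp followed at 3.80 ± 0.909 and Arnt2 at 3.19 ± 0.417 CPM per kb, again within their spread. Ahrr at 1.78 ± 0.164 and Cyp1b1 at 1.42 ± 0.163 CPM per kb were lowest. In O2-PBS retinas the level of Ahr was 16.2 ± 2.28 CPM per kb, above Arnt at 10.8 ± 0.685.

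Ahr was the member with the largest fold change between O2-PBS and RA-PBS in both fits. Its level was 47.3, 56.4, 64.0 and 56.2 CPM in RA-PBS animals 1 to 4. In O2-PBS animals 5 to 8 it was 118.7, 87.4, 101.8 and 91.0 CPM. Every O2-PBS retina was above every RA-PBS retina, a gap in one direction or the other that 14.4% of all genes showed in 12 animals and 14.3% of those tested without animal 10. The group levels were 99.7 ± 14.1 CPM in O2-PBS and 56.0 ± 6.83 CPM in RA-PBS (SD, n = 4). The log2 fold change was 0.83 ± 0.26 (SE), or 1.78-fold, with an adjusted p-value of 0.318 by edgeR in the fit of 12 animals. Without animal 10, which belongs to neither group but shares the estimate of spread, it was 0.83 ± 0.11 with an adjusted p-value of 0.000482, past the thresholds. Of the 6 members, 0 passed in the fit of 12 animals, where 0.807% of all genes passed, and 1 passed without animal 10, where 6.27% did. Ahr was also the 1 member with an unadjusted p under 0.05 in 12 animals, beside 7.12% of all genes. DESeq2 called Ahr there, with an adjusted p-value of 0.0654, among 2.5% of all genes. The exact two-sided permutation test over the 8 animals gave p = 0.0286, the smallest that 4 against 4 can give. With the lens level as a covariate in the fit of 12 animals, the log2 fold change was 0.43 with an adjusted p-value of 0.340 by edgeR. With a Y-linked covariate it was 1.01 with an adjusted p-value of 0.0956, past the thresholds. The lens covariate was not fitted without animal 10, where lens genes took 60.9% of counts, against at most 4.66% elsewhere. Within RA-PBS, Ahr was 47.3 CPM in animal 1, with 0.00374% lens counts, and 64.0 CPM in animal 3, with 4.66%. The part of lens RNA in the Ahr difference was not tested apart from animal 10.

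In O2-IC100 retinas Ahr was lower than in O2-PBS retinas. It was 63.8, 70.9 and 67.2 CPM in animals 9, 11 and 12, and 26.1 CPM in animal 10. All 4 values lay under the lowest O2-PBS retina, as in 20.8% of all genes tested for either direction, and animals 11 and 12 lay above the highest RA-PBS retina. The mean was 67.3 ± 3.59 CPM without animal 10 (SD, n = 3) and 57.0 ± 20.8 CPM with it (SD, n = 4). Against O2-PBS the log2 fold change was -0.80 ± 0.26 (SE) with an adjusted p-value of 0.287 by edgeR in 12 animals, and -0.55 ± 0.12 with an adjusted p-value of 0.0650 without animal 10. The second value, 0.682-fold, missed the 1.5-fold threshold. Of the 6 members, 0 passed in either fit, where 0% of all genes passed with 12 animals and 0.947% without animal 10. Ahr was the 1 member with an unadjusted p under 0.05 in each, beside 16.9% of all genes (2784) in 12 animals and 19.2% without animal 10. In 12 animals DESeq2 called 125 genes (0.758%), none of them a member. The exact permutation test gave p = 0.0286 with animal 10 and p = 0.0571 without it, each the smallest possible. With a Y-linked covariate in 12 animals the log2 fold change was -1.05 with an adjusted p-value of 0.0378 by edgeR, past the thresholds. With the same covariate and without animal 10 it was -0.47 with an adjusted p-value of 0.136.

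Against RA-PBS, Ahr in O2-IC100 retinas gave a log2 fold change of 0.03 ± 0.26 (SE) in 12 animals and 0.28 ± 0.12 without animal 10, with adjusted p-values of 0.964 and 0.259 by edgeR. The comparisons share groups, so a high O2-PBS mean enters both the rise from RA-PBS and the drop to O2-IC100. Among libraries with high Y-linked counts, Ahr was 47.3 to 64.0 CPM in 3 RA-PBS retinas, 91.0 CPM in the 1 O2-PBS retina and 63.8 to 70.9 CPM in 3 O2-IC100 retinas. Among those with low counts it was 56.2 CPM in the 1 RA-PBS retina, 87.4 to 118.7 CPM in 3 O2-PBS retinas and 26.1 CPM in the 1 O2-IC100 retina, animal 10. Each kind of library held only 1 retina of some groups, and high Y-linked counts were spread unevenly over the groups. These values therefore do not separate Y-linked counts from group. Counts for Ahr could include reads of Gm48236, annotated on the opposite strand, because the strand setting is not given in the sources used here. The expected counts of Ahr were whole to within 0.01 in all 12 libraries. Among members that overlap no annotated gene, Ahrr and Arnt had whole counts in 0 libraries and Cyp1b1 in 12. Arnt2 and Tiparp, which overlap genes on the opposite strand, had whole counts in 2 and 1. The share of Gm48236 reads in the Ahr counts was not tested.

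**Figure D1:**
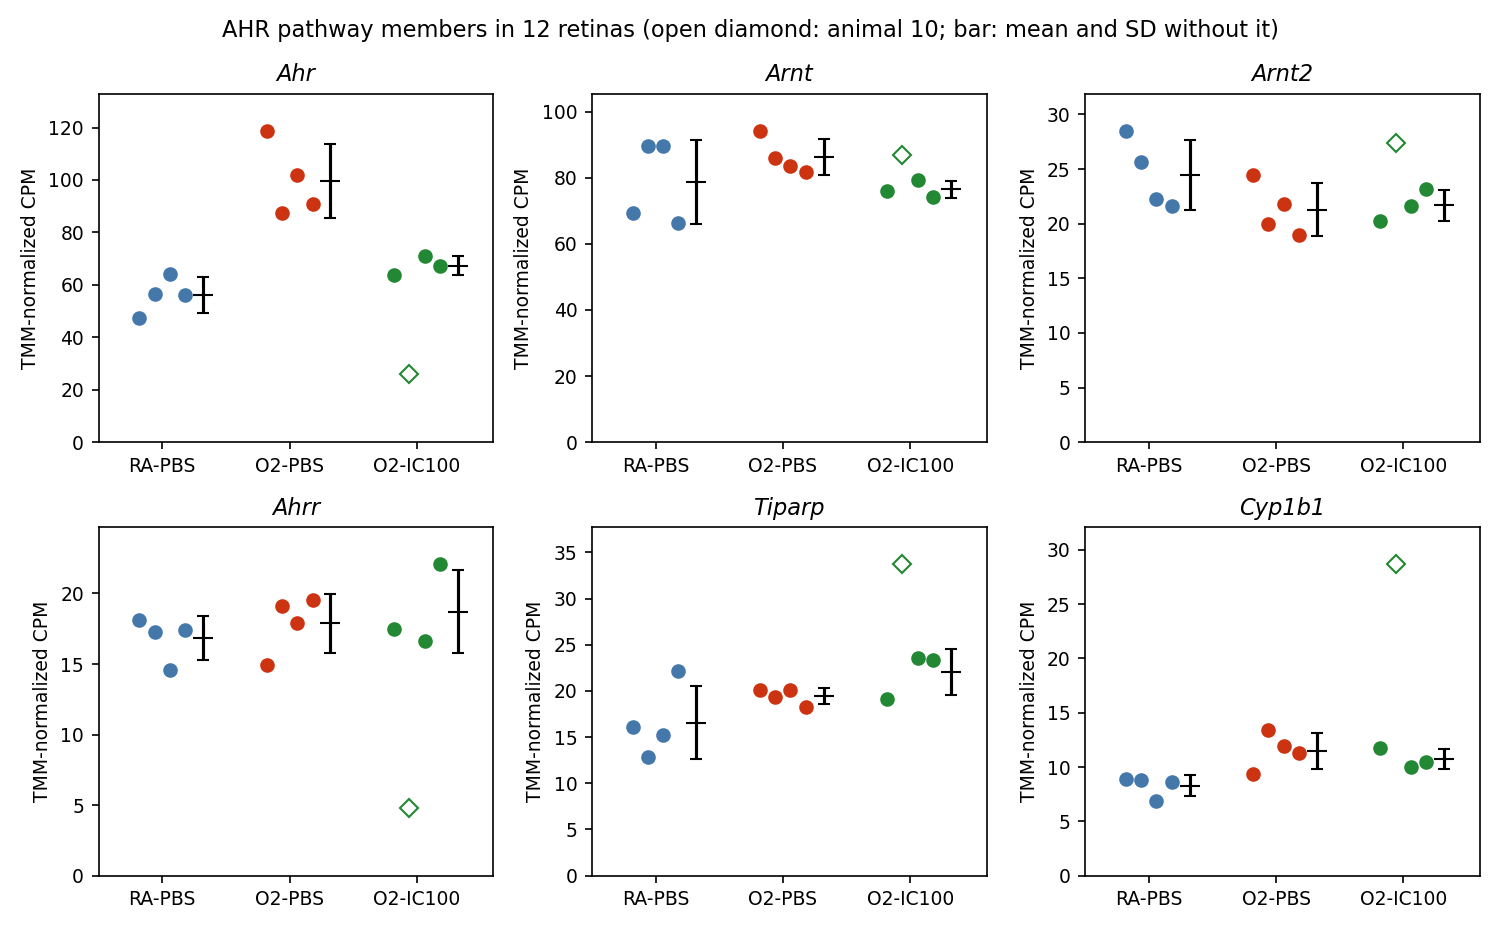
Normalized CPM (linear axis from 0) of each member in every retina by group, with animal 10 as an open diamond and a bar for the mean and SD without it. Ahr in O2-PBS lies at 87.4 CPM or more, above all retinas of the other groups, while the groups of Arnt2 and Ahrr overlap.

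Markers of several cell types differed between the groups as well. Without animal 10, median sums for endothelium, mural cells, reactive glia, and fibroblast and sclera had the same order of groups as Ahr. The summed CPM of 14 endothelial markers was 273 to 397 in RA-PBS, 575 to 682 in O2-PBS and 395 to 446 in O2-IC100 without animal 10, with no marker at 0 in any retina and 83.6 in animal 10. Of 10 pericyte and mural markers the sum was 171 to 205, 360 to 522 and 311 to 375 CPM in the same order. Microglia and macrophage markers, 14 in all, summed to 60.7 to 113, 116 to 146 and 134 to 163 CPM, and 10 reactive glia markers to 116 to 415, 354 to 747 and 191 to 249 CPM. The 10 Müller glia markers summed to 4182 to 5629, 3581 to 3929 and 3919 to 4291 CPM. Sums of 10 markers of pigment epithelium and ciliary body were 94.3 to 288, 55.9 to 115 and 143 to 147 CPM, and those of 10 fibroblast and sclera markers 28.3 to 116, 68.8 to 101 and 54.1 to 70.5 CPM. In animal 10 these lists summed to 683 (mural), 585 (microglia and macrophage), 804 (reactive glia), 15798 (Müller glia), 8746 (pigment epithelium and ciliary body) and 758 CPM (fibroblast and sclera). The part of these markers in the Ahr result was not tested. In these bulk retinas, more cells of a type that holds Ahr and more Ahr RNA per cell cannot be told apart.

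Neither partner of the receptor passed the thresholds in any comparison. Arnt, the main partner, was 69.4, 89.5, 89.5 and 66.3 CPM in RA-PBS animals 1 to 4. In O2-PBS animals 5 to 8 it was 94.2, 85.96, 83.5 and 81.8 CPM. In O2-IC100 it was 76.1, 79.3 and 74.1 CPM in animals 9, 11 and 12 and 86.98 CPM in animal 10. The RA-PBS values spanned those of O2-IC100 and all but 1 of O2-PBS. Its log2 fold change between O2-PBS and RA-PBS was 0.13 ± 0.12 (SE) in 12 animals and 0.13 ± 0.10 without animal 10, with adjusted p-values of 1.00 and 0.474 by edgeR. Between O2-IC100 and O2-PBS it was -0.13 ± 0.12 and -0.16 ± 0.11. Without animal 10 the 3 O2-IC100 values lay under all 4 O2-PBS values, a pattern that 35.4% of all genes tested shared in one direction or the other.

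Arnt2, the partner found chiefly in neurons, was 28.5, 25.6, 22.3 and 21.6 CPM in RA-PBS. It was 24.4, 19.97, 21.8 and 18.96 CPM in O2-PBS, and 20.3, 27.4, 21.6 and 23.1 CPM in O2-IC100 animals 9 to 12. The 3 groups overlapped. The log2 fold change was -0.20 ± 0.14 (SE) between O2-PBS and RA-PBS in 12 animals and -0.20 ± 0.11 without animal 10, with an adjusted p-value of 0.326 by edgeR in the second fit. Between O2-IC100 and O2-PBS it was 0.12 ± 0.14 and 0.04 ± 0.12.

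Ahrr, the repressor with 3 copies of GCGTG above, passed the thresholds in no comparison. It was 18.1, 17.3, 14.6 and 17.4 CPM in RA-PBS and 14.95, 19.1, 17.9 and 19.5 CPM in O2-PBS. In O2-IC100 it was 17.5, 16.6 and 22.1 CPM in animals 9, 11 and 12 and 4.80 CPM in animal 10. The groups overlapped, and animal 10 was lowest of all. The log2 fold change between O2-PBS and RA-PBS was 0.09 ± 0.33 (SE) in 12 animals and 0.09 ± 0.13 without animal 10, with an adjusted p-value of 0.740 by edgeR in the second fit. Its sign between O2-IC100 and O2-PBS turned with animal 10, at -0.22 ± 0.33 with it and 0.08 ± 0.13 without it.

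Tiparp, the enzyme that shuts AHR down, passed the thresholds in neither fit of any comparison. It was 16.04, 12.8, 15.2 and 22.1 CPM in RA-PBS animals 1 to 4, so that animal 4 lay above all O2-PBS values of 20.1, 19.3, 20.1 and 18.3 CPM. O2-IC100 retinas gave 19.2, 23.6 and 23.4 CPM in animals 9, 11 and 12 and 33.7 CPM in animal 10. Between O2-PBS and RA-PBS the log2 fold change was 0.23 ± 0.20 (SE) in 12 animals and 0.23 ± 0.15 without animal 10. Between O2-IC100 and RA-PBS it was 0.59 ± 0.20 with an adjusted p-value of 0.374 by edgeR, and 0.43 ± 0.16 with an adjusted p-value of 0.207 without animal 10. With the lens level as a covariate in 12 animals it was 0.65 with an adjusted p-value of 0.0273 by edgeR, past the thresholds. That fit was not repeated without animal 10, the retina with the highest Tiparp. The exact permutation test of that comparison gave p = 0.0571 with animal 10 and p = 0.114 without it. Tiparp and Arnt2 also overlap genes annotated on the opposite strand, 4931440P22Rik and Gm30873.

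Cyp1b1 was higher in both oxygen groups than in room air, without passing the thresholds. It was 8.92, 8.79, 6.88 and 8.58 CPM in RA-PBS and 9.35, 13.4, 11.9 and 11.3 CPM in O2-PBS. In O2-IC100 it was 11.8, 10.03 and 10.4 CPM in animals 9, 11 and 12 and 28.7 CPM in animal 10. All retinas of the oxygen groups lay above all RA-PBS retinas, the nearest pair being 9.35 and 8.92 CPM. Between O2-PBS and RA-PBS 2 of the 6 members, Ahr and Cyp1b1, showed such a gap, beside the 14.4% of all genes given above. Between O2-IC100 and RA-PBS Cyp1b1 alone did, beside 5.84% of all genes in 12 animals and 10.8% without animal 10. The log2 fold change was 0.47 ± 0.31 (SE) with an adjusted p-value of 0.987 by edgeR in 12 animals, and 0.47 ± 0.14 with an adjusted p-value of 0.0527 without animal 10. The latter is 1.39-fold and missed the fold threshold alone. The exact permutation test gave p = 0.0286. With the lens level as a covariate in 12 animals the value was 0.85 with an adjusted p-value of 0.0505 by edgeR, past the thresholds. With a Y-linked covariate it was 0.23 with an adjusted p-value of 0.675, and 0.45 with an adjusted p-value of 0.134 without animal 10. The lens covariate was not fitted without animal 10, where lens genes took 60.9% of counts and Cyp1b1 was 28.7 CPM. In RA-PBS, the library with the most lens counts, animal 3, had the lowest Cyp1b1, 6.88 CPM. The share of all genes past the thresholds with either covariate was not computed.

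Between O2-IC100 and RA-PBS, Cyp1b1 had a log2 fold change of 0.86 ± 0.31 (SE) in 12 animals and 0.39 ± 0.15 without animal 10, with adjusted p-values of 0.374 and 0.228 by edgeR. With the lens covariate, fitted only in 12 animals, it was 0.89 with an adjusted p-value of 0.0239 by edgeR, past the thresholds. Against O2-PBS it was 0.39 ± 0.31 with animal 10 and -0.08 ± 0.15 without it, so the sign rested on that library. Between O2-IC100 and RA-PBS, 0 of the 6 members passed in either fit, where 0% of all genes passed in 12 animals and 1.56% without animal 10. An unadjusted p under 0.05 was seen in 2 members with 12 animals (Cyp1b1 and Tiparp) and in 3 without animal 10 (these and Ahr), beside 13.2% (2183) and 15.6% of all genes. In 12 animals DESeq2 called 299 genes (1.81%), none of them a member. Pericyte and mural markers and microglia and macrophage markers, whose sums are given above, were likewise higher in O2-PBS and O2-IC100 than in RA-PBS. Their part in the Cyp1b1 values was not tested.

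**Figure D2:**
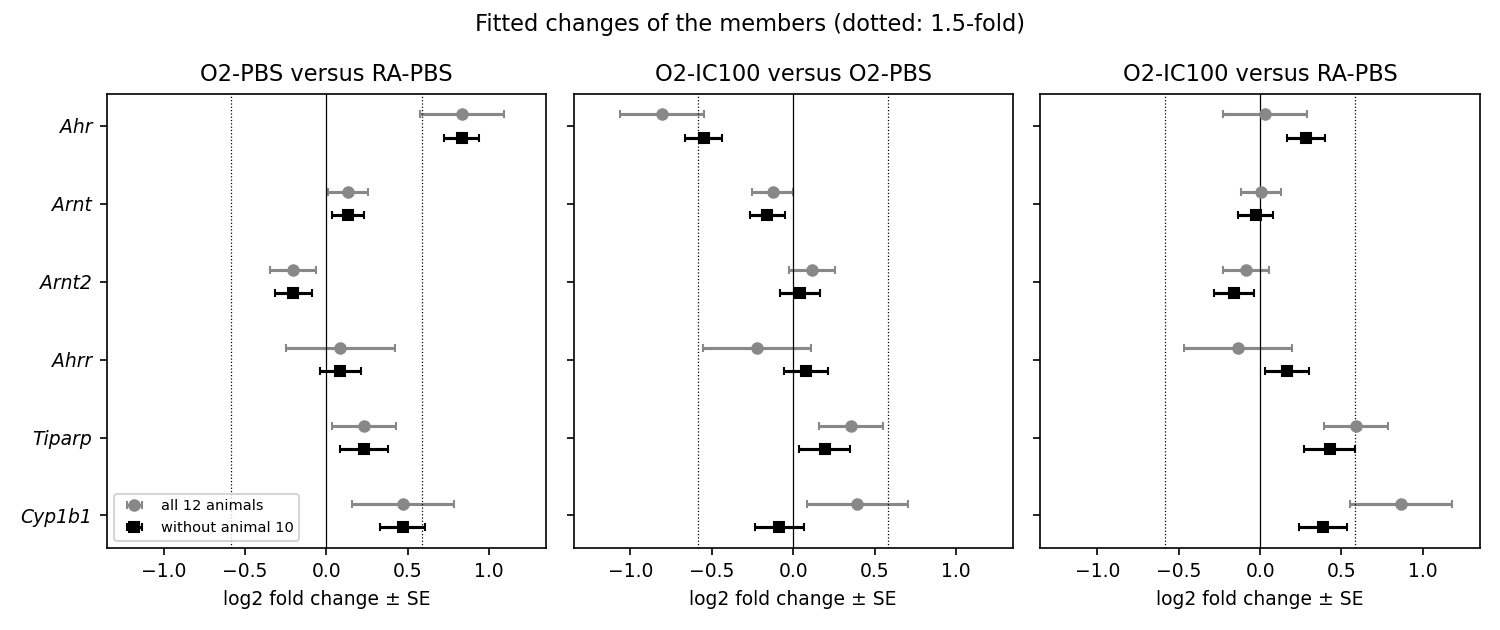
Fitted log2 fold change with its SE for each member in 3 comparisons, from edgeR with 12 animals (grey circles) and without animal 10 (black squares), with dotted lines at 1.5-fold. Ahr lies at 0.83 between O2-PBS and RA-PBS in both fits, with the shorter bar without animal 10.

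Ratios within a library do not depend on its scaling. They were computed on expected counts after the member values had been seen, for 5 pairs of members. The receptor stood higher against its partner in O2-PBS than in RA-PBS retinas. The log2 ratio of Ahr to Arnt was -0.49 ± 0.18 in RA-PBS and 0.20 ± 0.14 in O2-PBS (SD, n = 4), a difference of 0.68. Ahr also stood higher against Ahrr, by 0.75, and against Tiparp, by 0.57. For each of these 3 ratios the groups did not overlap, the exact two-sided permutation p was 0.0286, and adjustment over 15 tests gave 0.0714. All 3 hold the same Ahr counts, and Ahr by itself showed such a gap. They therefore restate the Ahr difference and are not 3 separate results. The share of other gene pairs with such a gap was not computed. The ratio of Ahr to Cyp1b1 differed by 0.36 with an exact permutation p of 0.257, and its groups overlapped.

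Without animal 10, the same ratios were lower in O2-IC100 than in O2-PBS, by 0.38 for Arnt, 0.62 for Ahrr and 0.73 for Tiparp. None of these groups overlapped, and each exact permutation p was 0.0571, the smallest that 3 against 4 can give, or 0.143 after adjustment over 10 tests. These ratios again share the Ahr counts, and 35.4% of single genes tested showed a gap in this comparison without animal 10. Animal 10 stood far below the other O2-IC100 retinas in the ratios of Ahr to Arnt, Tiparp and Cyp1b1. With it, the differences were -0.77 for Arnt and -1.23 for Tiparp (exact permutation p = 0.0286 each) and -0.48 for Ahrr (exact permutation p = 0.114). The ratio of Arnt2 to Arnt was -1.68 ± 0.307 in RA-PBS and -2.02 ± 0.0963 in O2-PBS (SD, n = 4), with an exact permutation p of 0.0857. In O2-IC100 it was higher than in O2-PBS by 0.24, with no overlap, an exact permutation p of 0.0286 and 0.0714 after adjustment. Without animal 10 this difference was 0.21, again with no overlap, with an exact permutation p of 0.0571.

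**Figure D3:**
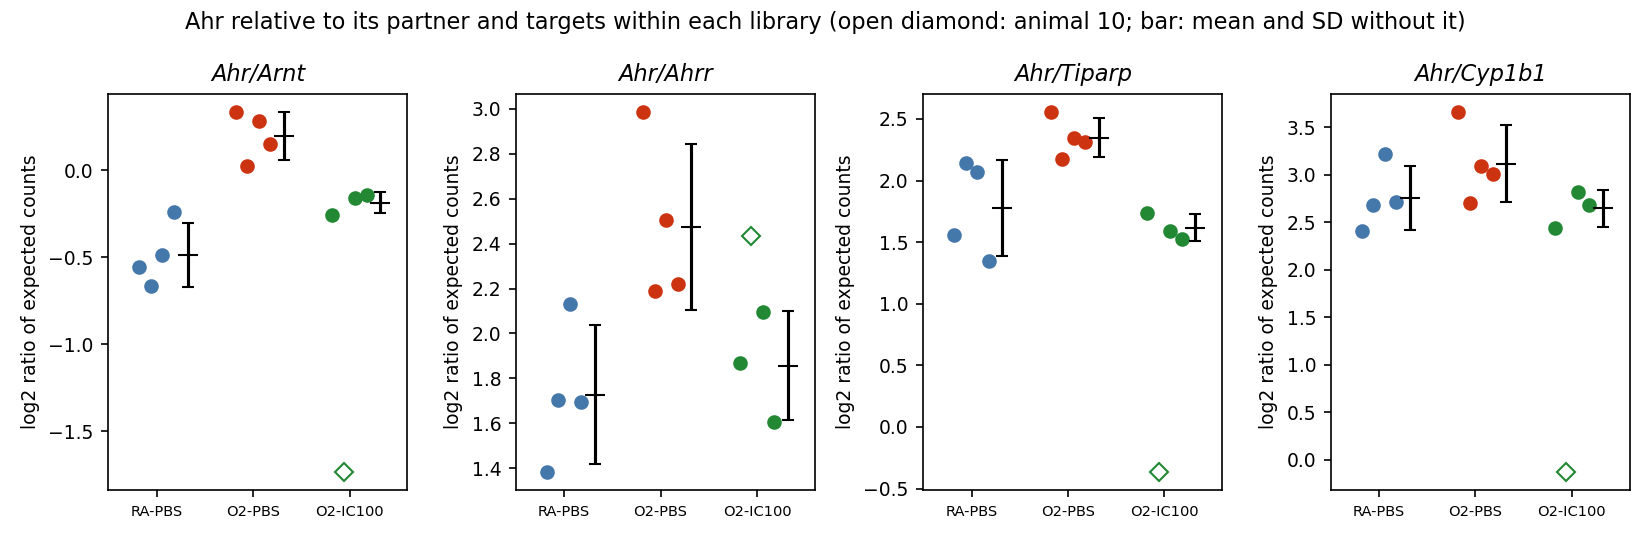
Log2 ratio of Ahr to Arnt, Ahrr, Tiparp and Cyp1b1 expected counts in each retina by group, with animal 10 as an open diamond and bars for mean and SD without it. For the first 3 ratios the O2-PBS retinas lie above all RA-PBS retinas, and for Cyp1b1 they overlap.

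Around the 6 members, 47 further genes in 5 lists were followed, of which 33 passed the filter. In the fit of 12 animals none of the 33 passed the thresholds by edgeR in any comparison. An unadjusted p under 0.05 was seen in 3 between O2-PBS and RA-PBS, 8 between O2-IC100 and O2-PBS and 4 between O2-IC100 and RA-PBS, beside 7.12%, 16.9% and 13.2% of all genes. DESeq2 called 1, 0 and 0 of the 33, beside 2.5%, 0.758% and 1.81% of all genes. Without animal 10 an unadjusted p under 0.05 by edgeR was seen in 6, 12 and 4, beside 21.9%, 19.2% and 15.6%. Past the thresholds without animal 10 were 2 of the 33 between O2-PBS and RA-PBS, beside 6.27% of all genes. Npas3 was higher and Nqo1 lower in O2-PBS. None passed between O2-IC100 and O2-PBS, beside 0.947% of all genes. Between O2-IC100 and RA-PBS 1 passed, Npas4, which was higher in O2-IC100, beside 1.56% of all genes. Nqo1, an antioxidant quinone reductase and an AHR target that is also driven by NRF2, was 4.09, 2.75, 3.16 and 4.00 CPM in RA-PBS and 1.81, 1.67, 1.98 and 1.88 CPM in O2-PBS. All O2-PBS values lay below all RA-PBS values, a gap that 14.3% of all genes tested without animal 10 showed in either direction. The log2 fold change was -0.93 ± 0.20 (SE) with an adjusted p-value of 0.0129 by edgeR without animal 10. The O2-IC100 retinas were at 2.77, 3.07 and 3.38 CPM, and animal 10 was at 49.4 CPM.

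Npas3, a neuronal transcription factor of the family that pairs with ARNT, was 2.47, 2.90, 2.78 and 2.53 CPM in RA-PBS and 4.88, 4.27, 4.30 and 4.71 CPM in O2-PBS. The groups did not overlap, which 14.3% of all genes tested without animal 10 also showed in either direction. The log2 fold change was 0.76 ± 0.17 (SE) with an adjusted p-value of 0.0152 by edgeR without animal 10. Npas4, an activity-dependent factor of the same family, was 4.90 to 7.40 CPM in RA-PBS and 8.43 to 9.26 CPM in O2-IC100 animals 9, 11 and 12, but 1.64 CPM in animal 10. Its log2 fold change between these groups was 0.62 ± 0.16 (SE) with an adjusted p-value of 0.0810 by edgeR without animal 10, and 0.30 ± 0.39 with it.

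The other lists held no gene past the thresholds in either fit. Of 6 chaperone and turnover genes, 0 had a log2 fold change above 0 between O2-PBS and RA-PBS, with a median of -0.11 without animal 10, beside -0.01 over all genes tested. Their most abundant member, the chaperone gene Hsp90aa1, was 1602 ± 377 CPM in RA-PBS and 1564 ± 59.5 CPM in O2-PBS (SD, n = 4). Of 7 coregulators, 0 had a log2 fold change above 0 between O2-IC100 and O2-PBS, with a median of -0.32 without animal 10, beside 0.00 over all genes tested. The most abundant, the coactivator gene Ncoa2, had a log2 fold change of -0.18 ± 0.13 (SE) there. Of 11 enzymes that make AHR ligands from tryptophan, 6 were tested, and the most abundant, Kyat1, had a log2 fold change of -0.08 ± 0.10 (SE) between O2-PBS and RA-PBS without animal 10.

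The classic receptor targets of the liver were almost absent. Cyp1a1, the enzyme whose induction marks AHR activity in many tissues, had 0 to 2 counts per retina, and Cyp1a2 had 0 in all 12, which allows up to 3 counts per library or at most 2.01e-05% of its total. Neither entered a test. Of 15 other AHR targets 8 were tested. The most abundant of them, the amino acid transporter gene Slc7a5, was 82.9 ± 13.1 CPM in RA-PBS and 85.6 ± 10.1 CPM in O2-PBS (SD, n = 4), against 676 CPM in animal 10. Hif1a, the hypoxia factor that pairs with ARNT and the most abundant of 8 such partners, was 610 ± 41.5 CPM in RA-PBS and 581 ± 18.2 CPM in O2-PBS (SD, n = 4). Hypoxia targets were followed as a list of 12, first between O2-PBS and RA-PBS. In both fits 3 passed the thresholds as higher in O2-PBS, beside 0.782% (12 animals) and 4.09% (without animal 10) of all genes. These were the vessel growth factor gene Vegfa, with a log2 fold change of 1.19 ± 0.09 (SE) and an adjusted p-value of 1.14e-05 by edgeR without animal 10, Adm at 3.51 and Egln3 at 1.89. Adm and Egln3 were named after their values were seen. Slc2a1, a glucose transporter gene of the same list, had a log2 fold change of 0.22 ± 0.09 (SE) and an adjusted p-value of 0.176. Without animal 10, 2 of the 12 passed as lower in O2-IC100 than in O2-PBS, beside 0.731% of all genes. Against RA-PBS, 3 passed as higher in O2-IC100, beside 0.947%. In 12 animals 0 passed in either comparison, where 0% of all genes did.

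**Figure D4:**
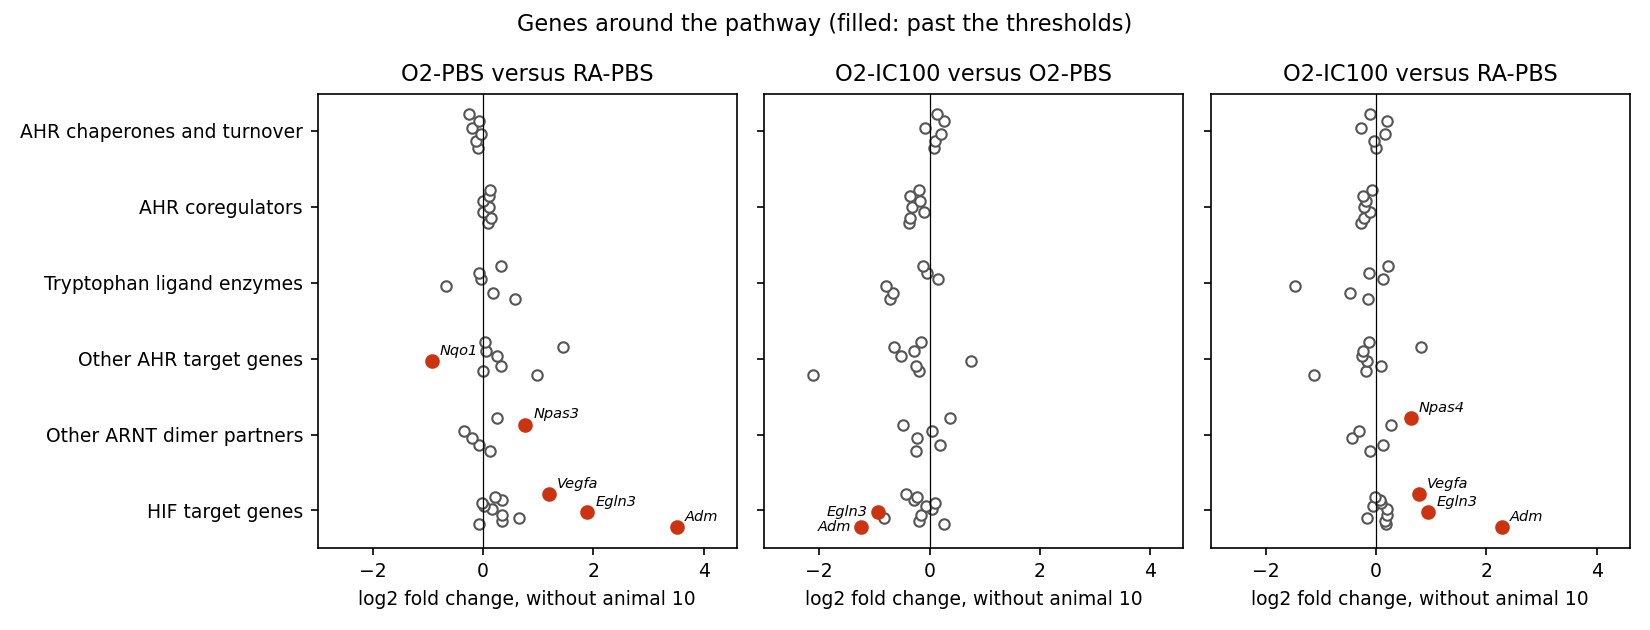
Log2 fold change without animal 10 for genes of 5 lists around the pathway and of 12 hypoxia targets, one point per gene tested, with filled points past the thresholds. Outside the hypoxia targets, Nqo1, Npas3 and Npas4 are the filled points.

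Likeness across retinas was described over the 11 animals without animal 10, among 15020 genes with a mean of at least 1 CPM. These animals share their groups, so any gene that follows the groups scores high. Ahr was most like Tnip2, Agtpbp1 and Tgm2, each with Pearson's r of 0.98 on log2 CPM. Arnt was most like Leng8 and Khsrp at 0.98 and Rad54l2 at 0.97, and Arnt2 like Xkr7 and Cdk16 at 0.95 and P2rx6 at 0.94. Tiparp was most like Rnase4 at 0.96 and Cfap97 and Snrnp40 at 0.95. Cyp1b1 was most like Agtrap at 0.93, Ankrd33 at 0.87 and Glt1d1 at 0.86, and Ahrr like Cd320 at 0.89, 4930579G24Rik at 0.87 and Anapc7 at 0.86. Among the members themselves the strongest were Ahr with Arnt and Ahrr with Cyp1b1, both at 0.61, while Ahr with Ahrr gave -0.10.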

How the data were processed

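RNA of P18 retinas was sequenced after polyA selection as 150 bp paired-end reads, 1 library per animal. The authors pseudoaligned the reads to the GRCm39_104 transcriptome with kallisto and summed them per gene with tximport, and the deposited expected counts per gene carry no normalization. Of the values, 42.2% were not whole, and they were rounded before testing. Such estimates split reads between similar transcripts. Symbols came from a table of GENCODE M21, which matched 35374 of 36131 identifiers, and exon lengths came from the same release. The labels give RNeasy extraction and intraperitoneal placebo, the methods Trizol and intravitreal placebo.

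Groups were taken from the labels. Counts were analysed in R 4.3.3 with edgeR 4.0.16 (TMM, filterByExpr, robust quasi-likelihood F test, 1 fit of the 3 groups, Benjamini-Hochberg adjustment), and single genes also with exact permutation tests (scipy 1.17.1) on log2 CPM with a prior count of 2, for 6 members in 3 comparisons. Alternatives used DESeq2 1.42.0, limma 3.58.1 voom, other normalizations, filters and covariates, and each animal left out. The procedure was tested on simulated data that held no lens-rich library, so that test does not cover a library like animal 10. The members and lists were chosen with earlier results of these data known. Named genes were the 6 members, genes of the lists past the thresholds in either fit, the most abundant of each list, Vegfa, Slc2a1 and the 3 genes most like each member. Nothing states that animals came from separate litters, so p-values measure the spread between these animals. Precision from depth is a floor of 3 counts, 1.23e-05% to 2.01e-05% of a library, which covers counting error only.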

Additional observations from a re-analysis of the deposited data

Results flagged for a closer look

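Of 18 sets of values (6 members in 3 groups of 4 retinas), 3 held a retina that stood apart from the other 3 by Dixon's criterion, which chance meets in about 1 set in 20. Ahr in O2-IC100 was lowest in animal 10, at 26.1 CPM. Cyp1b1 in O2-IC100 was highest in animal 10, at 28.7 CPM. Lens genes took 60.9% of the counts of that library, and their part in these values was not tested. Cyp1b1 in RA-PBS was lowest in animal 3, at 6.88 CPM, the RA-PBS library with the most lens counts, 4.66%.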

How the results depend on the processing

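Of 558 member values over 31 alternatives, 504 kept their direction and side of the thresholds, 14 passed them where the fit of 12 animals did not, and 40 changed sign, none of which had passed. Among the 31, 1 was the fit of 12 animals itself with adjusted p under 0.05. No member had passed in that fit, so its values counted as kept by construction. Between O2-PBS and RA-PBS, 1 member instead of 0 passed with DESeq2, with only the 2 groups compared, with the lens covariate (Cyp1b1, not Ahr), with the Y-linked covariate, and without animal 10 in all 7 fits that left it out. The corresponding counts of the wider lists were 1, 2, 6, 0 and 2 to 4 (3 with DESeq2, 4 with upper-quartile normalization). Between O2-PBS and RA-PBS the fit of only the 2 groups never holds animal 10, so 1 of the 7 fits repeats it. The totals above count that fit 2 times. Between O2-IC100 and O2-PBS the Y-linked covariate gave 1 member and 7 wider genes, and without animal 10 DESeq2 gave 2, leaving out animal 1 as well 2, and only 2 groups 3. Between O2-IC100 and RA-PBS the lens covariate gave 2 members, Cyp1b1 and Tiparp, and 5 wider genes, and without animal 10 the wider lists gave 1, 2 with DESeq2 and 0 with the Y-linked covariate or only 2 groups. With each animal left out in turn, members ranged from 0 to 1, 0 to 0 and 0 to 0, and wider genes from 0 to 2, 0 to 0 and 0 to 1, and leaving out animal 10 alone gave the counts above 0. DESeq2 without animal 10 called 6.99%, 2.3% and 3.4% of all genes in the 3 comparisons. For the covariate fits, the fits of only 2 groups and the other alternatives, the share of all genes was not computed. Their counts of members and wider genes therefore cannot be set against such a share.

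Without animal 10, the sign of 2 members turned between O2-IC100 and O2-PBS. Ahrr was 0.061 (DESeq2), 0.035 (Y-linked covariate), 0.079 (without animals 1 and 10), 0.066 (only 2 groups), 0.061 (RLE) and 0.051 (upper quartile), and Cyp1b1 -0.10, -0.051, -0.085, -0.099, -0.10 and -0.11. Against RA-PBS, Ahrr was 0.15, 0.14, 0.21, 0.16, 0.15 and 0.19, and Arnt -0.047, -0.064, -0.077, -0.039, -0.047 and -0.011. With each animal left out, Ahrr ranged from -0.45 to 0.079 and Cyp1b1 from -0.084 to 0.55 against O2-PBS, and Ahr from -0.092 to 0.28, Ahrr from -0.36 to 0.17 and Arnt from -0.066 to 0.081 against RA-PBS. With 12 animals, Arnt against RA-PBS was -0.012 with upper-quartile normalization and -0.013 with no filter. Ahr there was -0.0078 with voom, -0.24 with the lens covariate and -0.039 with the Y-linked covariate. Ahrr between O2-PBS and RA-PBS was -0.53 with the lens covariate. The causes were not tested. The last 3 settings without animal 10 were chosen after seeing the data. No paired analysis was possible because the animals carry numbers 1 to 12 and share none between groups. Depth limits Cyp1a1 and Cyp1a2, which had too few counts to test.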
